A study of Mus musculus with 65 samples.

Results

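Ribosomes are put together in the nucleolus, where RNA polymerase I transcribes the ribosomal RNA precursor and a long series of factors folds, modifies, cleaves and packs it with ribosomal proteins. Small nucleolar ribonucleoproteins guide the chemical marks on the RNA, the small subunit processome assembles on the 5′ part of the precursor, and a separate set of factors matures the large subunit before export. Hematopoietic stem cells are known for a low rate of protein synthesis, and Npm1 is known in blood as a gene often altered in leukemia.

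The levels of 6 genes of this machinery were examined in single stem cells of aged mice: Npm1, Ncl, Fbl, Pes1, Nop53 and Utp6. They were chosen by name for their place in ribosome assembly, not by a rule on a measured value. Earlier results of these data were known when they were chosen. All 6 were found among the 18036 identifiers of the deposited table, of which 6826 had a value above 0 in any cell. The study sorted 65 single long-term hematopoietic stem cells from the marrow of mice older than 20 months. All mice were double heterozygous for SCL-tTA, a tetracycline transactivator under an SCL promoter, and H2B-GFP, a histone reporter whose label is diluted when a cell divides. The sort took lineage-depleted LSK cells that were CD34-/low, Flk2-, CD48- and CD150+, and split them by GFP. The 37 GFP-positive cells are the label-retaining ones and the 28 GFP-negative cells the non-label-retaining ones. Both groups carried both transgenes and were kept overnight at 3% oxygen without growth factors before SMART-Seq v4 cDNA synthesis, which amplifies full-length polyadenylated RNA without molecular tags. The series design gives 4 biological repeats, with 9, 9, 10 and 9 GFP-positive and 8, 4, 6 and 10 GFP-negative cells in repeats 1 to 4. The labels do not give the number of mice in a repeat, so the p-values measure the spread between the repeats only.

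Depth and a few cells limit what these values can show. The sum of estimated counts had a median of 264894 in GFP-positive cells (27954 to 20516069) and of 118056 in GFP-negative cells (86.1 to 661078). Of GFP-negative cells 4 held fewer than 10000 counts. The median number of genes found per cell was 1948 and 961.5. In repeats 1 and 2 GFP-positive cells had both the higher median total and the higher median number of genes. In repeats 3 and 4 the median total was higher in GFP-negative cells (271753 against 201268, and 201757 against 164961). Their median number of genes was still lower (1137 against 1620.5, and 764 against 1258). The part of depth in these differences was not tested. Of the stem cell markers, Hlf was found in 31 GFP-positive and 12 GFP-negative cells, and Slamf1, which encodes CD150, was at 0 in all 65 cells. In 1 GFP-positive cell of repeat 3 haemoglobin genes held 92.0% of the counts, against at most 7.93% in any other cell, and this cell had 5 counts of Utp6, 0.21 of Ncl and none of the other 4 genes. The 4 erythroid markers in the table took a median of 0.0185% of the counts of GFP-positive cells and 0.279% of those of GFP-negative cells, and their part in the results was not tested. Without the haemoglobin-rich cell no member's difference in detection, thinned detection, mean CPM per cell or summed level changed direction.

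Cells were the objects counted, but the repeat was the unit of every test. Detection is the share of the cells of a repeat with a value above 0 for a gene. Because a deeper cell can show more genes, detection was also measured at an equal depth. Each cell of at least 10000 counts was thinned at random to 10000 counts, which left all 37 GFP-positive and 24 GFP-negative cells. The exact permutation test of 4 repeats against 4 is two-sided and cannot give a p below 0.0286. Adjusted p-values are Benjamini-Hochberg values over all genes with a value above 0.

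All 6 genes were detected in a larger mean share of GFP-positive than of GFP-negative cells, and none of the 6 differences passed the test. Of the 3489 genes with a value in at least 10 cells, 93.5% had the larger mean share on the same side, so 6 of 6 is near the share of all genes. Nop53 had the widest gap, 78.9% ± 16.4 against 29.4% ± 25.7 (SD, n = 4 repeats, exact permutation p = 0.0571, adjusted p = 0.686), and Utp6 the narrowest, 75.6% ± 14.2 against 73.3% ± 9.72 (exact permutation p = 0.771). The share was higher in GFP-positive cells in all 4 repeats for 2 of the 6 genes, Ncl and Nop53. Among the 3489 genes, 29.1% were higher in all 4 repeats in the same way. The median difference over the 6 genes was 20.8 percentage points, against 19.4 over those 3489 genes. After thinning the median fell to 12.5 points over the 6 genes and to 6.43 over the 3489. In the 1 random draw used, 1 gene, Nop53, was higher in all 4 repeats (9.14% of the 3489 genes). In that draw 1 gene, Utp6, was lower in all 4 (0.516%). With the expected share in place of 1 draw, Utp6 was instead higher in GFP-positive cells in repeat 3, 25.1% against 22.1%.

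**Figure D1:**
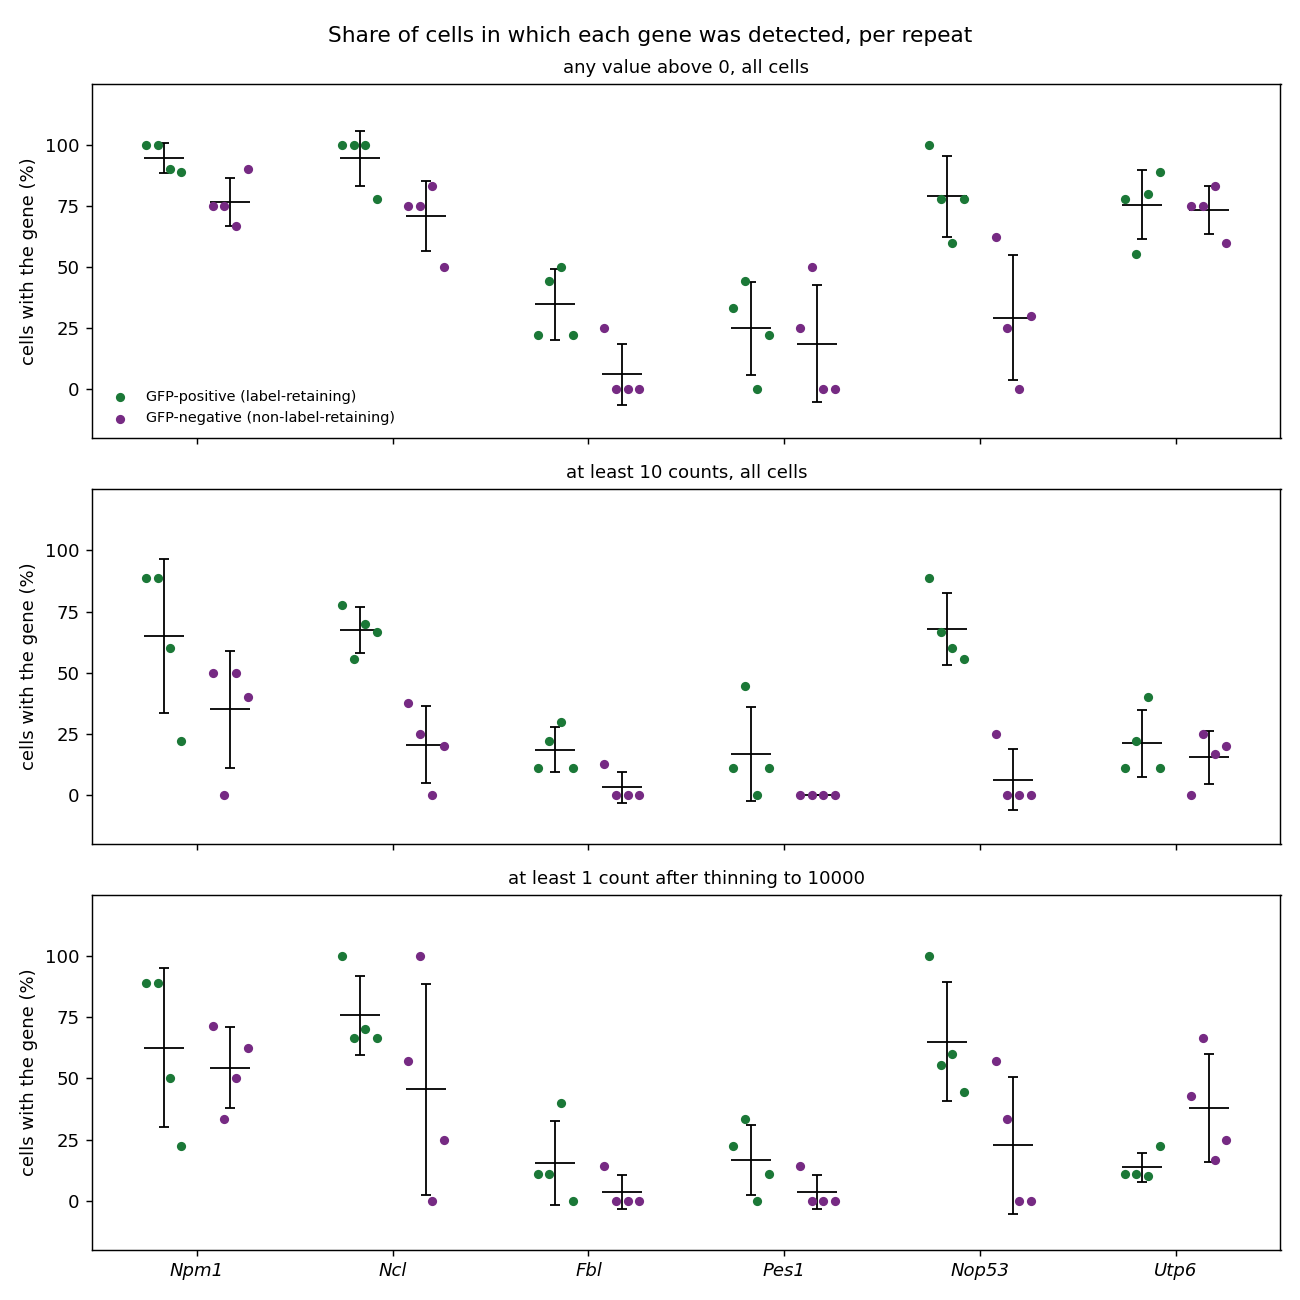
Share of cells (percent, y axis) in which each of the 6 genes (x axis) was found, by group; each point is 1 repeat and the bars are the mean ± SD of 4 repeats. The top panel counts any value above 0, the middle panel at least 10 counts, and the bottom panel at least 1 count after thinning to 10000. Only for Ncl and Nop53 in the middle panel do all GFP-positive points lie above all GFP-negative points.

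Nop53 (NCBI gene 68077) encodes a large subunit assembly factor that brings the RNA exosome to the precursor and is also linked to p53 control through ribosomal proteins. The gene lies at chr7:15937835-15946108 on the minus strand of GRCm38.p6, the mm10 build, and the snoRNA gene Snord23 overlaps it. It was found in 9 of 9, 7 of 9, 6 of 10 and 7 of 9 GFP-positive cells of repeats 1 to 4. Among GFP-negative cells it was found in 5 of 8, 1 of 4, 0 of 6 and 3 of 10. Every repeat thus had the larger share in its GFP-positive cells, although the lowest of these shares, 60.0% in repeat 3, was below the 62.5% of GFP-negative repeat 1. The counts went further apart than the shares. Of GFP-positive cells 25 had at least 10 counts and 18 at least 100, with a highest value of 22505, while of GFP-negative cells 2 had at least 10, namely 273 and 128, both in repeat 1. The share of cells with at least 10 counts was 88.9%, 66.7%, 60.0% and 55.6% in the GFP-positive repeats and 25.0%, 0%, 0% and 0% in the others. These groups did not overlap (exact permutation p = 0.0286, the smallest possible, adjusted p = 0.456), as was the case for 12.2% of the 3489 genes. Each cell's counts were also scaled to the cell's own total (cell CPM) and averaged over the cells of a repeat. For Nop53 this mean was 853 ± 368 in GFP-positive and 104 ± 162 in GFP-negative repeats (SD, n = 4, exact permutation p = 0.0286, adjusted p = 0.887), again without overlap, which held for 5.36% of genes. After thinning Nop53 was found in 24 of 37 and 5 of 24 cells, 65.0% ± 24.2 against 22.6% ± 27.9 over the repeats (exact permutation p = 0.0857, adjusted p = 1).

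Ncl (NCBI gene 17975) encodes nucleolin, an abundant RNA-binding protein of the nucleolus whose introns host snoRNAs. It lies at chr1:86344719-86359455 on the minus strand, where Snora75 and Snord82 overlap it. No counts were found for either, and a gene absent from the deposited table would give the same result. Ncl was found in 9 of 9, 9 of 9, 10 of 10 and 7 of 9 GFP-positive cells and in 6 of 8, 3 of 4, 5 of 6 and 5 of 10 GFP-negative cells. The means were 94.4% ± 11.1 and 70.8% ± 14.4 (SD, n = 4, exact permutation p = 0.0571, adjusted p = 0.686). Where the gene was found at all, the median was 118 counts in GFP-positive and 4 counts in GFP-negative cells. The highest values were 7930 and 159 counts. At least 10 counts were found in 77.8%, 55.6%, 70.0% and 66.7% of the GFP-positive cells of repeats 1 to 4. The corresponding shares of GFP-negative cells were 37.5%, 25.0%, 0% and 20.0%, so the groups did not overlap (exact permutation p = 0.0286, adjusted p = 0.456), as for 12.2% of the 3489 genes. In mean cell CPM, GFP-positive repeats had 746, 449, 3159 and 1259, and GFP-negative repeats 655, 80.2, 5.72 and 61.1. Non-GFP-positive repeat 1 lay above GFP-positive repeat 2 (exact permutation p = 0.0571, adjusted p = 1). That repeat holds a cell of 2938 counts in all, and without the cells under 10000 counts its mean was 262 (exact permutation p = 0.0286, adjusted p = 0.929). After thinning Ncl was found in 28 of 37 and 9 of 24 cells, with shares of 100%, 66.7%, 70.0% and 66.7% against 57.1%, 100%, 0% and 25.0%. The 100% of GFP-negative repeat 2 stands for 3 cells, and the thinned difference did not pass the test (exact permutation p = 0.229).

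Npm1 (NCBI gene 18148) encodes nucleophosmin, a chaperone of the granular outer layer of the nucleolus that binds histones and ribosomal proteins. It lies at chr11:33152498-33164142 on the minus strand. The gene was found in 35 of 37 GFP-positive and 22 of 28 GFP-negative cells, 94.7% ± 6.11 and 76.7% ± 9.72 over the repeats (SD, n = 4, exact permutation p = 0.0857, adjusted p = 0.708). Unlike for Ncl and Nop53, high values occurred in both groups. Label-retaining cells reached 14388 counts, in the deepest cell of the series. Of GFP-negative cells 3, all in repeat 4, held 5152, 4622 and 1260 counts, and together with the rest of that repeat made 11063 of the group's 12662 counts. In mean cell CPM the GFP-positive repeats had 860, 1573, 710 and 193, and the GFP-negative repeats 467, 1086, 969 and 6452. Repeat 4 thus held the lowest value of one group and the highest of the other, and the groups overlapped (exact permutation p = 0.514). Without repeat 4 the difference changed direction, to a cell CPM 207 higher in GFP-positive cells. The value of GFP-negative repeat 2, 1086, came largely from a cell with 238 counts in all, and was 48.8 without the cells under 10000 counts. That of repeat 4 was then 5074. After thinning the shares were 88.9%, 88.9%, 50% and 22.2% in GFP-positive and 71.4%, 33.3%, 50% and 62.5% in GFP-negative repeats (exact permutation p = 0.686). The thinned difference was 8.2 points in this draw and 17.4 with the expected share in place of 1 draw. It was 10.4 points at 3000 counts and 31.8 at 30000 (exact permutation p = 0.514 and 0.0286). Neither passed after adjustment.

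**Figure D2:**
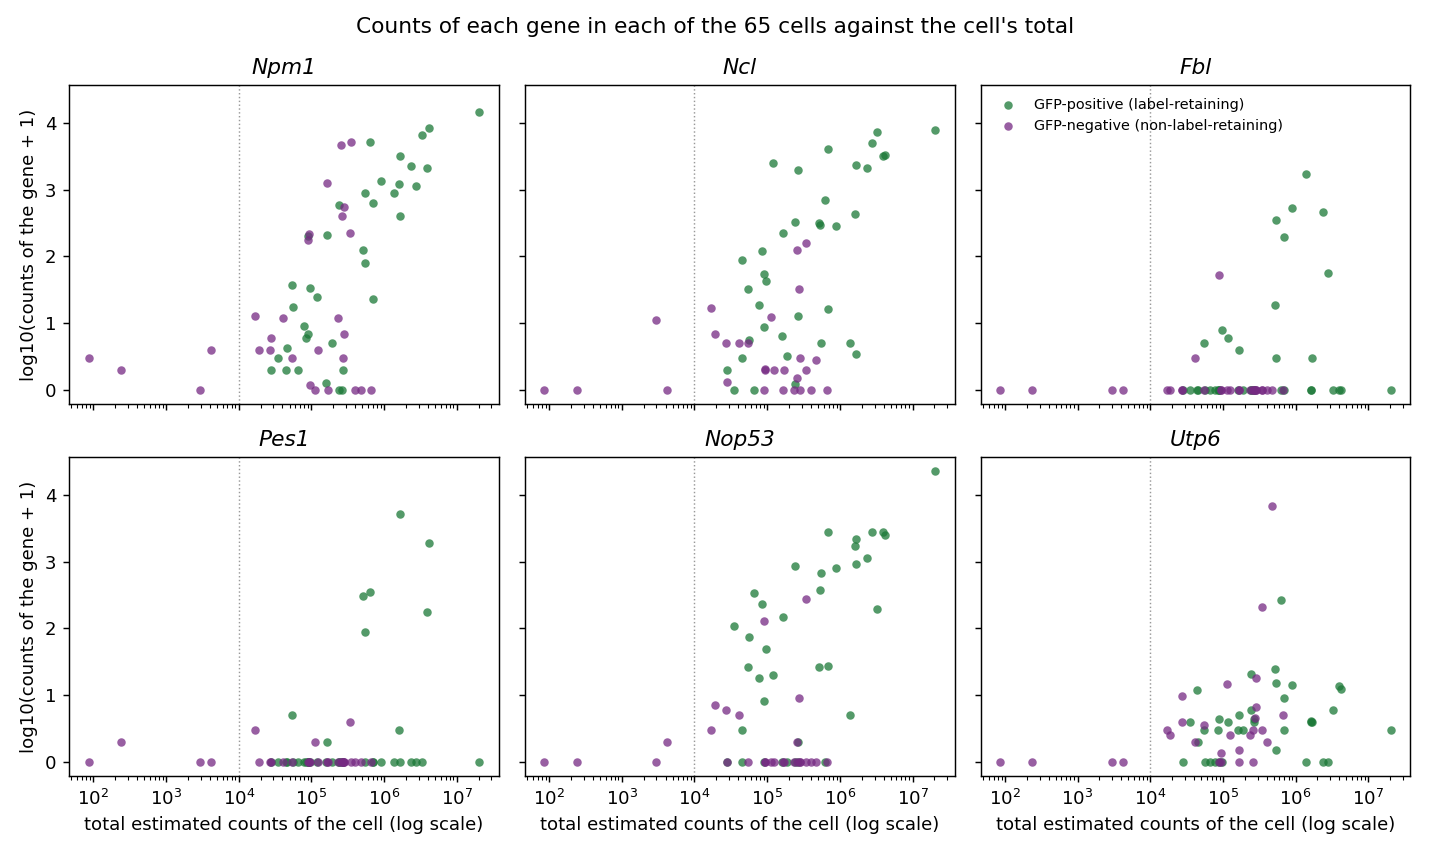
Counts of each gene in each of the 65 cells (y axis, log10 of the estimated counts plus 1) against the cell's total counts (x axis, log scale), colored by group, with a dotted line at 10000 counts. Ncl and Nop53 points of GFP-positive cells lie mostly above 10 counts, those of GFP-negative cells mostly below, and 1 GFP-negative cell stands alone for Utp6 at 6752 counts.

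Fbl (NCBI gene 14113) encodes fibrillarin, the methyltransferase of box C/D small nucleolar ribonucleoproteins, and lies at chr7:28168893-28179269 on the plus strand. It was found in 2, 4, 5 and 2 GFP-positive cells of repeats 1 to 4, and in 2 GFP-negative cells, both of repeat 1. The means were 34.7% ± 14.6 and 6.25% ± 12.5 (SD, n = 4, exact permutation p = 0.0857, adjusted p = 0.708). Repeat 1 went the other way, with 22.2% of GFP-positive and 25.0% of GFP-negative cells. The highest GFP-positive cell held 1728 of the group's 3364 counts, and the GFP-negative cells held 52.5 and 2 counts. After thinning 6 of 37 and 1 of 24 cells showed Fbl. Pseudogene copies of Fbl and Npm1 exist elsewhere in the genome, and how reads were divided between near-identical copies is not stated in these sources, so values of both are uncertain to that extent. Of the values above 0, 20.0% for Fbl and 47.4% for Npm1 were not whole numbers, against 34.9% over all genes. The share was highest for Ncl, 64.8%, and was 50% for Utp6, 42.1% for Nop53 and 23.1% for Pes1.

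Pes1 (NCBI gene 64934) encodes pescadillo, which with Bop1 and Wdr12 forms a complex needed for the large subunit, and lies at chr11:3963975-3980004 on the plus strand. It was found in 3, 4, 0 and 2 GFP-positive and in 2, 2, 0 and 0 GFP-negative cells of repeats 1 to 4, 25.0% ± 19.0 and 18.8% ± 23.9 (SD, n = 4, exact permutation p = 0.743). The shares of cells overlapped, while the highest counts lay far apart. The 9 GFP-positive cells with Pes1 had between 1 and 5189 counts with a median of 173, and the 4 GFP-negative cells had 3, 2, 1 and 1. No GFP-negative cell reached 10 counts, and 6 GFP-positive cells did (exact permutation p = 0.143). The mean cell CPM was nevertheless higher in GFP-negative cells, 267 ± 523 against 138 ± 195 (SD, n = 4). That mean rests on 1 count in a cell of 238 counts in repeat 2. Without the cells under 10000 counts it was 5.27 ± 8.68 against 138 ± 195 (exact permutation p = 0.143), the opposite direction. After thinning Pes1 was found in 6 of 37 and 1 of 24 cells.

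Promoter sequence was at hand for Ncl and Pes1, and 150 bases before to 20 bases after the annotated RefSeq start (GRCm38.p6) are shown so that the 2 gene starts can be compared. Capitals mark the E-box CACGTG, the letters that MYC family proteins bind, and the GC box GGGCGG or its reverse complement CCGCCC, which SP1 family proteins bind. Both strands were searched, and the 2 motifs share no position here.
Ncl, chr1:86359436-86359605, minus strand: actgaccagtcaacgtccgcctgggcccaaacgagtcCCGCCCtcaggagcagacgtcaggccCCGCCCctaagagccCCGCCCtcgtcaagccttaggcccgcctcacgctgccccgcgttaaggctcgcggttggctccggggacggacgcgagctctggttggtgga
Pes1, chr11:3963825-3963994, plus strand: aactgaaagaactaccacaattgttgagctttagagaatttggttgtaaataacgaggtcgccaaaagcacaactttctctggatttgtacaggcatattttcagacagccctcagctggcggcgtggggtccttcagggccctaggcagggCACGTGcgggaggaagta
The Ncl window holds 3 GC boxes, starting at -113, -87 and -72 from the transcription start, and no CACGTG. The Pes1 window holds 1 E-box, starting at position 3 of the transcript, and no GC box. Of 32851 RefSeq promoter windows of the same length, 4.86% hold CACGTG and 30.3% hold GGGCGG on either strand. These matches describe letters, and no binding was measured.

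Utp6 (NCBI gene 216987) encodes a subunit of the small subunit processome and lies at chr11:79933956-79962387 on the minus strand. It was the member with the lower thinned detection in GFP-positive cells. It was found in 7, 5, 8 and 8 GFP-positive and in 6, 3, 5 and 6 GFP-negative cells, at mostly low counts: 20 of the 28 GFP-positive and 16 of the 20 GFP-negative cells with Utp6 had fewer than 10. A single GFP-negative cell of repeat 3 held 6752 counts, which is 96.0% of the group's sum and 90.5% of that of all 65 cells. The next highest were 265 counts in a GFP-positive cell of repeat 2 and 209 in a GFP-negative cell of repeat 4. In mean cell CPM the GFP-positive repeats had 7.38, 47.5, 43.8 and 27.9 and the GFP-negative repeats 30.3, 68.8, 2369 and 99.0. Each repeat had the lower mean in its GFP-positive cells, while the groups overlapped (exact permutation p = 0.0857, adjusted p = 1). Without the highest cell the difference in means went from -610 to -19.7 cell CPM (exact permutation p = 0.4). After thinning to 10000 counts Utp6 was found in 11.1%, 11.1%, 10% and 22.2% of GFP-positive and 42.9%, 66.7%, 16.7% and 25.0% of GFP-negative cells (exact permutation p = 0.0571, adjusted p = 1). With the expected share in place of this 1 draw the difference at 10000 counts was -19.6 points. Repeat 3 then had the higher share in GFP-positive cells, 25.1% against 22.1%. The direction turned with the depth of thinning: the difference was -24.2 points at 10000 counts, 2.82 at 3000 and 10.9 at 30000. Detection in all cells also reversed, to -10.5 points, without the cells under 10000 counts.

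The cells also differed in how many of the 6 genes they showed at once. A median of 4 genes was found per GFP-positive cell and 3 per GFP-negative cell. Counting only genes with at least 10 counts, the medians were 3 and 1, and after thinning they were again 3 and 1. All 6 genes were found in 5 GFP-positive cells and in no GFP-negative cell, and every cell showed at least 1. After thinning 4 of 37 GFP-positive and 6 of 24 GFP-negative cells showed none. Over all genes, without thinning, the median number found was 1948 per GFP-positive and 961.5 per GFP-negative cell. The direction is thus not particular to these 6 genes. These counts pool the cells of all repeats and were not tested. Npm1, Ncl and Nop53 were the genes most often found together: after thinning Ncl and Nop53 shared 20 GFP-positive and 4 GFP-negative cells. These 3 were also the members found in the most thinned cells, with Ncl in 28 and Nop53 in 24 of 37 GFP-positive cells. No link between them can be read from the shared cells. Fbl and Pes1, each found in 7 of the 61 thinned cells, were found together in none of them. With each in so few cells, no exclusion can be read from this. Without thinning, 1 GFP-positive cell had at least 10 counts of both. Across the 61 cells the Pearson correlations between members, on log2(counts per 10000 + 1), lay between -0.20 for Nop53 with Utp6 and 0.32 for Ncl with Nop53. These are descriptions of cells that share libraries, depth and repeats.

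**Figure D3:**
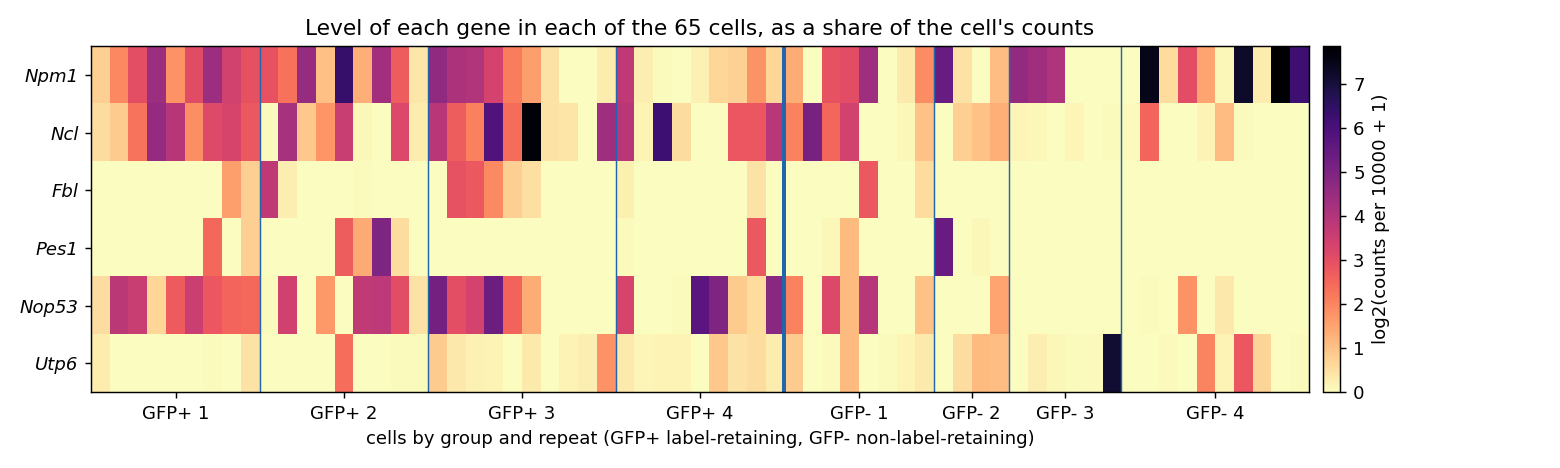
Level of the 6 genes (rows) in the 65 cells (columns, by group and repeat), as log2(counts per 10000 of the cell's counts + 1), with 0 in the palest color. Nop53 and Ncl show color in cells of all 4 GFP-positive repeats and almost none in GFP-negative repeat 3, and the darkest Npm1 cells lie in GFP-negative repeat 4, where 1 of them holds 86.1 counts in all.

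Levels were next compared on sums of the counts of all cells in a repeat and group, with edgeR's quasi-likelihood test. Of 2786 genes tested none passed an adjusted p of 0.05, so percent called is 0 and all 6 members are among the genes not called. At an unadjusted p under 0.05, 180 genes were higher in GFP-positive cells and 122 in GFP-negative cells. This balance moved with the scaling and the model, to 124 and 150 with DESeq2 size factors in edgeR, 230 and 43 with total counts, and 212 and 9 with the repeat as a block. DESeq2 on the same sums called 11 genes, none of them a member, with no adjusted p given for Npm1 and Utp6. The summed level of Nop53 was 443, 458, 1148 and 376 CPM (of the scaled sum) in GFP-positive and 276, 19.7, 0 and 26.4 in GFP-negative repeats. That of Ncl was 359, 481, 1802 and 1189 against 131, 74.8, 11.5 and 414. Both had the higher GFP-positive value in 4 of 4 repeats, with edgeR log2 fold changes of 2.91 ± 2.27 (SE, adjusted p = 0.565) and 2.60 ± 2.34 (adjusted p = 0.601). The standard errors were close in size to the changes themselves.

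Pes1 had a log2 fold change of 5.48 ± 2.64 (SE, edgeR adjusted p = 0.434), with 29.4, 314, 0 and 133 CPM against 3.34, 7.87, 0 and 0. It reversed to -1.41 when cells were brought to an equal total before summing, a setting in which the cell of 238 counts weighs as much as any other. Fbl had 3.30 ± 2.39 (SE, edgeR adjusted p = 0.546), with 7.21, 97.0, 257 and 9.28 CPM against 36.1, 0, 0 and 0. This value was 1.13 without repeat 3. Without repeat 1, or without its GFP-negative cells alone, it was 12.1 and 13.2, values that are no bound because all remaining GFP-negative sums are 0. Npm1 and Utp6 had negative values. That of Npm1 was -3.85 ± 2.52 (SE, edgeR adjusted p = 0.512), on 511, 694, 837 and 156 CPM against 282, 23.6, 2241 and 29159. It was -1.07 with total counts, -0.75 without repeat 4, -1.03 without the GFP-negative cells of repeat 4 and -0.36 with the repeat as a block. That of Utp6 was -8.00 ± 3.08 (SE, edgeR adjusted p = 0.326), on 0.43, 15.4, 18.1 and 19.4 CPM against 6.01, 74.8, 12956 and 633. Without its highest cell Utp6 no longer passed the filter on low counts, and with no filter its value was -2.41 (edgeR adjusted p = 0.672). The scaling factors of GFP-negative repeats 3 and 4 were 0.29 and 0.22 against 1.44 to 2.04 elsewhere, which raises every CPM of those 2 repeats. Over the 6 genes the median log2 fold change was 2.75, and over all 2786 tested genes it was 1.15 (0.63 with DESeq2 size factors and 1.78 with total counts).

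The other ribosome assembly genes were taken from 6 lists by role, 168 genes in all without the members, of which 71 were in the table and all 71 had a value. Detection was larger in GFP-positive cells for 63 of the 71 and smaller for 8, with a median difference of 18.1 points, and 17 were higher in all 4 repeats. Over all 6826 genes with a value, 86.1% were larger and 15.5% were higher in all 4 repeats. The share of larger genes was thus near that of all genes here and in the lists that follow. The exception was the list of box C/D and H/ACA ribonucleoproteins, with 3 larger of 7. After thinning 60 were larger and 9 smaller, with a median of 6.98 points, and over all 6826 genes 58.7% were larger. Over all 6826 genes the medians were 10.1 and 2.78 points. Restricted to genes found in at least 10 cells, the median was 21.8 points over 51 assembly genes and 19.4 over 3489 genes, and after thinning 8.33 and 6.43. Of these 51 genes 45 were larger and 16 higher in all 4 repeats, against 93.5% and 29.1% of the 3489. After thinning 43 of the 51 were larger, against 71.9% of the 3489. None of the 50 assembly genes tested by edgeR was called, with 5 higher and 2 lower where the unadjusted p was below 0.05, and their median log2 fold change was 1.87.

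Among genes of the small subunit processome and 40S assembly, 25 of 26 had the larger share in GFP-positive cells. Of the 26 genes 10 were higher in all 4 repeats, against 15.5% of the 6826 genes with a value. Among the 3489 genes found in at least 10 cells, as 21 of the 26 were, it was 29.1%. The difference from these shares was not tested. Krr1, a processome factor, was found in 33 GFP-positive and 11 GFP-negative cells, 89.4% against 37.1% over the repeats (exact permutation p = 0.0286, adjusted p = 0.595). Wdr43, which acts in the early processome, was found in 28 and 10 cells, and Riok3, a kinase of late 40S maturation, in 25 and 10. Of the 21 genes for 60S assembly other than Pes1 and Nop53, 20 had the larger share in GFP-positive cells. Gnl3l, a nucleolar GTPase, was found in 30 and 11 cells, and after thinning in 32.8% of GFP-positive and 0% of GFP-negative cells (exact permutation p = 0.0286). That is the smallest possible p, which 91 of the 6826 genes reached after thinning, and no gene passed after adjustment. The helicase gene Ddx24 was found in 27 and 15 cells and the assembly factor gene Nsa2 in 25 and 12.

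The genes of box C/D and H/ACA ribonucleoproteins, the class of Fbl, were mixed, with 3 larger and 4 smaller. Nop58, which binds box C/D snoRNAs together with fibrillarin, was found in 17 and 6 cells and was higher in all 4 repeats (exact permutation p = 0.114). Ruvbl1 and Shq1, which help to assemble such particles, were found in 14 and 11 cells and in 7 and 7. Of 8 genes of RNA polymerase I transcription 7 were larger, with Ubtf, the polymerase I upstream binding factor, in 25 and 12 cells, the subunit gene Polr1d in 19 and 5, and the helicase gene Ddx21 in 15 and 6. Of 5 nucleolar chaperone and scaffold genes, the class of Npm1 and Ncl, 4 were larger. Nol7 was found in 12 and 2 cells, Mybbp1a in 10 and 1, and Rrp8 in 6 and 5. All 4 exosome and rRNA decay genes were larger, among them Exosc5 in 27 and 16 cells, C1d in 17 and 7, and Mtrex, the helicase that Nop53 recruits, in 17 and 5.

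**Figure D4:**
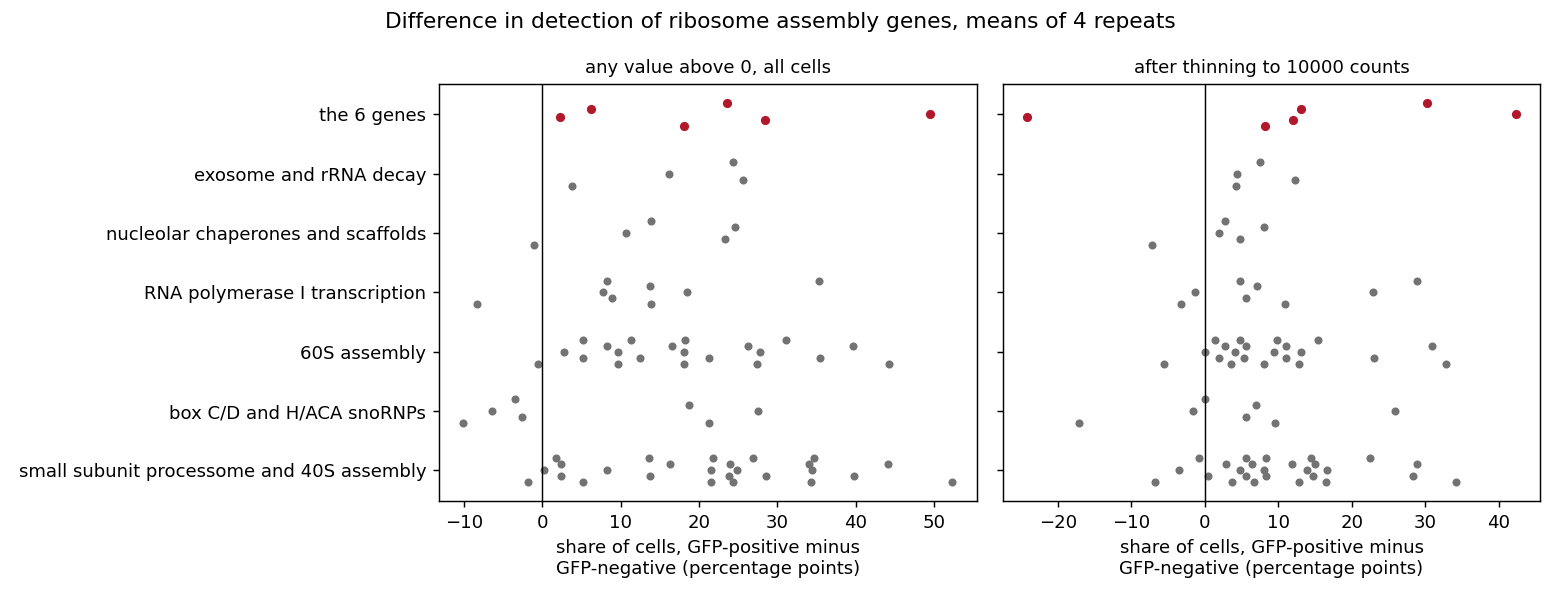
Difference in the share of cells with each gene, GFP-positive minus GFP-negative (x axis, percentage points, means of 4 repeats), for the 71 other assembly genes by list (grey points, each 1 gene) and the 6 genes (red), in all cells and after thinning to 10000 counts. Most points lie right of 0 in both panels, and the red point at -24.2 in the thinned panel is Utp6.

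Ribosomal protein genes encode the proteins that the assembly factors place on the RNA. The 41 cytosolic ribosomal protein genes in the table were found in a larger share of GFP-positive cells for 40 of 41 in all cells and for 41 of 41 after thinning, with median differences of 18.1 and 30.0 points. Of the 3489 genes found in at least 10 cells, 93.5% were larger in all cells and 71.9% after thinning. Their summed levels went the other way, with a median edgeR log2 fold change of -1.52 and 35 of 41 below 0, none called. Rps19 was found in 36 and 26 cells, Rps24 in 37 and 23, and Rps3 in 36 and 24. Of the 6 genes in the p53 branch of nucleolar stress all had the larger share in GFP-positive cells (86.1% of all genes did), with Rpl23 in 35 and 24 cells, the apoptosis gene Bax in 21 and 7, and the cyclin gene Ccng1 in 20 and 7, and none was called by edgeR.

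The genes with levels most like each member were sought across the 61 cells of at least 10000 counts, among 1957 genes found in at least 20 of them, by Pearson's r of log2(counts per 10000 + 1). For Nop53 these were Nemf, Foxp1 and Rwdd1 (r = 0.66, 0.66 and 0.65), for Ncl H3f3a, Cyb5a and Tcf4 (0.64, 0.62 and 0.61), and for Npm1 Fxyd5, Arpc5 and 2410006H16Rik (0.55, 0.51 and 0.50). For Fbl they were Pfdn2, B4galt6 and Ndufab1 (0.72, 0.71 and 0.70). These 12 values were between 0.49 and 0.67 when the member's highest cell was left out. For Pes1 the genes were Srp54a, Med13 and Gimap1, all at 0.72, which fell to 0.38, 0.44 and 0.58. For Utp6 they were Sptbn1, Smyd3 and Osbpl7 (0.72, 0.72 and 0.70), and without the highest cell the values were 0.02, 0.00 and -0.10. The cells differ in depth and in genes found: Ncl and Nop53 had an r of 0.21 and 0.19 with the log2 of the cell's total, and of 0.52 and 0.50 with the number of genes found in the cell.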

How the data were processed

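Single-cell RNA-seq values of 65 cells were used as deposited. Per the submitters' processing notes the authors used the mm10 build and DESeq; the aligner and the counter are not stated there. The authors deposited what are, by their values, estimated counts per gene, made from reads before deposit and not scaled between cells; 34.9% of the values above 0 are not whole (tolerance 0.0001). Of 18036 NCBI identifiers 16216 matched a symbol in RefSeq for GRCm38.p6. No 2 cells held identical values. Totals per cell cover only the genes of this table.

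Detection, counts scaled to the cell's total (cell CPM) and thinned detection (10000 rounded counts, seed 20) were computed per repeat and group and compared with exact permutation tests. Sums per repeat and group were rounded and tested with edgeR 4.0.16 (R 4.3.3, TMM, robust quasi-likelihood), for genes with a mean of at least 10 per cell and a value in at least 10 cells, with Benjamini-Hochberg adjustment and a threshold of 0.05. DESeq2 1.42.0, other scalings, filters, depths and left-out cells or repeats were alternatives, and the scripts were tested on simulated data. All libraries carry the same run and lanes in the labels. Repeat numbers are shared by the groups: deviations of same-numbered sums correlated at 0.55, 0.29, 0.17 and 0.16, each highest with its own number, so a fit with the repeat as a block was an alternative. Named genes are the 6 members, the 3 genes of each list found in the most cells, and the 3 genes most like each member. Members and lists were chosen with earlier results of these data known.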

Additional observations from a re-analysis of the deposited data

Results flagged for a closer look

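Within a group of 4 repeats, a repeat was picked out when its gap to the nearest other took more of the group's whole range than Dixon's criterion for 4 values allows. This was so for 18 of 48 groups of 4 values, 13 of them in GFP-negative cells; chance picks out about 1 group in 20, and several of the 48 groups hold 3 values of 0 and 1 above it. In GFP-positive cells these were the 77.8% detection of Ncl in repeat 4 and its 100% after thinning in repeat 1, the 426 cell CPM of Pes1 in repeat 2, the summed 1148 CPM of Nop53 in repeat 3 and the 22.2% thinned detection of Utp6 in repeat 4. In GFP-negative cells repeat 1 stood above the others for Ncl (655 cell CPM), for Fbl (25.0% of cells, 14.3% after thinning, 79.2 cell CPM and a summed 36.1 CPM), for Pes1 (14.3% after thinning) and for Nop53 (345 cell CPM and a summed 276 CPM). Repeat 2 stood above for Pes1 (1052 cell CPM), repeat 3 for Utp6 (2369 cell CPM and a summed 12956 CPM), and repeat 4 for Npm1 (6452 cell CPM and a summed 29159 CPM).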

How the results depend on the processing

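Of 318 recomputed values for single members, 305 kept their direction and their side of the threshold and 13 changed direction. Some of these values could not change side. Exact sign flips of 4 pairs cannot give a p below 0.125, nor exact permutations of 3 repeats against 3 below 0.1. Where a setting gave no p, a value that kept its direction was counted as keeping its side. Detection of Utp6 reversed to -10.5 points without the cells under 10000 counts, to -5.69 without the 2 cells under 1000 counts and to -6.67 without repeat 4 (range with each repeat left out -6.67 to 9.44). Its thinned difference became 2.82 points at 3000 and 10.9 at 30000 counts, and the thinned difference of Npm1 was -7.61 points without repeat 2 (range -7.61 to 24.3). In cell CPM Npm1 turned to 12.4 with the median over cells, to a log2 difference of 0.96 with the mean of log2(CPM + 1), and to 207 without repeat 4 (range -2041 to 207). Pes1 turned to 0.44 on that log2 scale, to 132 without the cells under 10000 counts and to 36.3 without repeat 2 (range -194 to 36.3), and its edgeR value to -1.41 with each cell rescaled. The number of members with a higher mean share of counts in GFP-positive cells was 3, and 5 on the log2 scale. DESeq2 called 11 genes where edgeR called 0. With the repeat as a block edgeR also called 0 of 2786 genes, the values of Npm1 and Utp6 were -0.36 and -4.77, those of Fbl and Nop53 6.40 and 4.35, and no call changed. Over all alternatives the edgeR values ran from 1.93 to 3.87 for Ncl, 1.64 to 5.34 for Nop53, 1.13 to 13.2 for Fbl, -1.41 to 6.23 for Pes1, -4.45 to -0.25 for Npm1 and -8.95 to -2.41 for Utp6. Each cause was not tested beyond what the left-out cells show. Depth limits detection: 4 GFP-negative cells held fewer than 10000 counts, where a 0 cannot be told apart from a low level.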
